A study of Mus musculus with 12 samples.

Results

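The genes described here encode the constitutive subunits of the proteasome, measured in liver RNA of mice with concanavalin A (Con A) hepatitis. They were taken by name, as every row of the deposited table whose symbol is Psma, Psmb, Psmc or Psmd followed by a digit, except the immunosubunits Psmb8, Psmb9 and Psmb10. This gave 34 of the 11289 genes. Of these, 14 belong to the 20S core (Psma1 to Psma7 and Psmb1 to Psmb7) and 20 to the 19S group (Psmc1 to Psmc6 and Psmd1 to Psmd14). All 34 are protein-coding genes that overlap their place in the GENCODE M21 annotation of the mouse.

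Liver RNA came from 12 C57BL/6J mice, in 3 groups of 4 mice, named control, Con A + PBS and, for the mice that received cells, Con A + hWJ-MSCs. Con A is a plant lectin that activates T cells and injures the liver, and it was injected into the tail vein at 15 mg/kg. PBS or hWJ-MSCs, mesenchymal stromal cells of human Wharton's jelly, followed intravenously 30 min after Con A, and livers were taken 24 h later. The labels call the cells hUC-MSCs, and they do not say what the control mice were injected with. By the labels the mice were 8 to 10 weeks old and received 2000000 cells, and the study's methods give other numbers for both and describe the animals as male. Whole liver was sequenced, so every value is a mixture of hepatocytes, other liver cells and infiltrating leukocytes, and fewer cells of a type cannot be told apart from less RNA per cell.

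The proteasome degrades proteins that carry ubiquitin. Its 20S core is a barrel of stacked rings, in which the outer rings of alpha subunits (Psma genes) gate the entry and the inner rings of beta subunits (Psmb genes) hold the proteolytic sites. The 19S particle caps the barrel. Its base contains a ring of ATPases (Psmc genes) that unfold the substrate and non-ATPase subunits that bind ubiquitin, and its lid removes the ubiquitin chains. Under interferon-gamma the catalytic subunits Psmb5, Psmb6 and Psmb7 can be replaced by the immunosubunits Psmb8, Psmb9 and Psmb10. The transcription factor NRF1, encoded by Nfe2l1, raises proteasome genes when proteasome activity falls.

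The values are whole numbers that had been normalized between mice before deposit, with a median of 352 in every mouse, so the depth of sequencing is unknown. The members lay between 196 and 4766 in single mice and none reached the largest value of the table, 341028, at which 10 genes were tied in each mouse. Values can be compared between mice for 1 gene, but not between genes. Con A + PBS mouse 4 stood apart from its group, with correlations of 0.928 to 0.955 across genes with the other 3 mice, which had 0.976 to 0.981 among themselves. Results that rest on it are therefore also given without it. The 9 measured hepatocyte markers summed to between 1029930 and 1245127 in control mice, 733629 and 806308 in Con A + PBS mice, and 803163 and 854473 in Con A + hWJ-MSCs mice. These sums hold tied values, since Alb and Cps1 had a constant value in all 12 mice, Apoa1 had 147628 in all 4 control mice and Cyp2e1 reached the largest value of the table in 1 control mouse. Ttr also reached that value in the control group. In the Con A + hWJ-MSCs group every mouse had 44442 for Apoa1 and 72724 for Serpina1a. The changes of these markers are therefore approximate. After Con A 4 of the 9 fell by adjusted p, against 26.0% of all genes, among them Apoa1 (log2 fold change -1.73) and Cyp2e1 (-2.43), while Serpina1a and Tat had values of -0.26 and 0.09. When Con A + PBS mouse 4 was left out, 3 of the 9 fell and Apob rose by 0.75, since Fabp1 went from -0.68 to -0.36. The 14 measured leukocyte markers summed to 3466 to 4753, 5410 to 8234 and 4334 to 7846 in the same order of groups. In that list 11 rose after Con A by adjusted p, against 29.5% of all genes, among them Gzmb (5.32), S100a9 (4.89), Cd68 (2.89) and Lcp1 (0.51). The macrophage and monocyte genes Csf1r (-2.57) and Lyz2 (-1.39) fell, and no marker of either list was at 0 in a whole group. Between the mice given cells and those given PBS no gene of either list changed by adjusted p (limma). With each mouse centred within bins of transcript length, Cd68 and Lcp1 fell (-1.37 and -0.54). Without this centring 3 hepatocyte and 2 leukocyte markers had an unadjusted p below 0.05, with values of 0.51 for Serpina1a, 0.61 for Fabp1, -1.04 for Tat, -1.16 for Cd68 and -0.35 for Lcp1. These numbers of markers were 0 and 3 without Con A + PBS mouse 4. The part of these marker changes in the results below was not tested.

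Most of the proteasome genes were moderately higher after Con A. Against control, 11 of the 34 members were called higher in Con A + PBS mice and 0 were called lower, where called means an adjusted p below 0.05 (limma, Benjamini-Hochberg over all genes) with a fold change above 1.5. Across all genes 19.5% were called higher. By adjusted p alone (limma) 24 members rose and 0 fell, against 29.5% and 26.0% of all genes in these directions. The counts of genes that rose in each ring, the base and the lid below are to be read beside this 29.5%, and those called beside 19.5%. The median log2 fold change, on the scale of log2(value + 1), was 0.44 over the members and 0.05 over all genes, and 32 of the 34 values were above 0, against 52.8% of all genes.

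**Figure D1:**
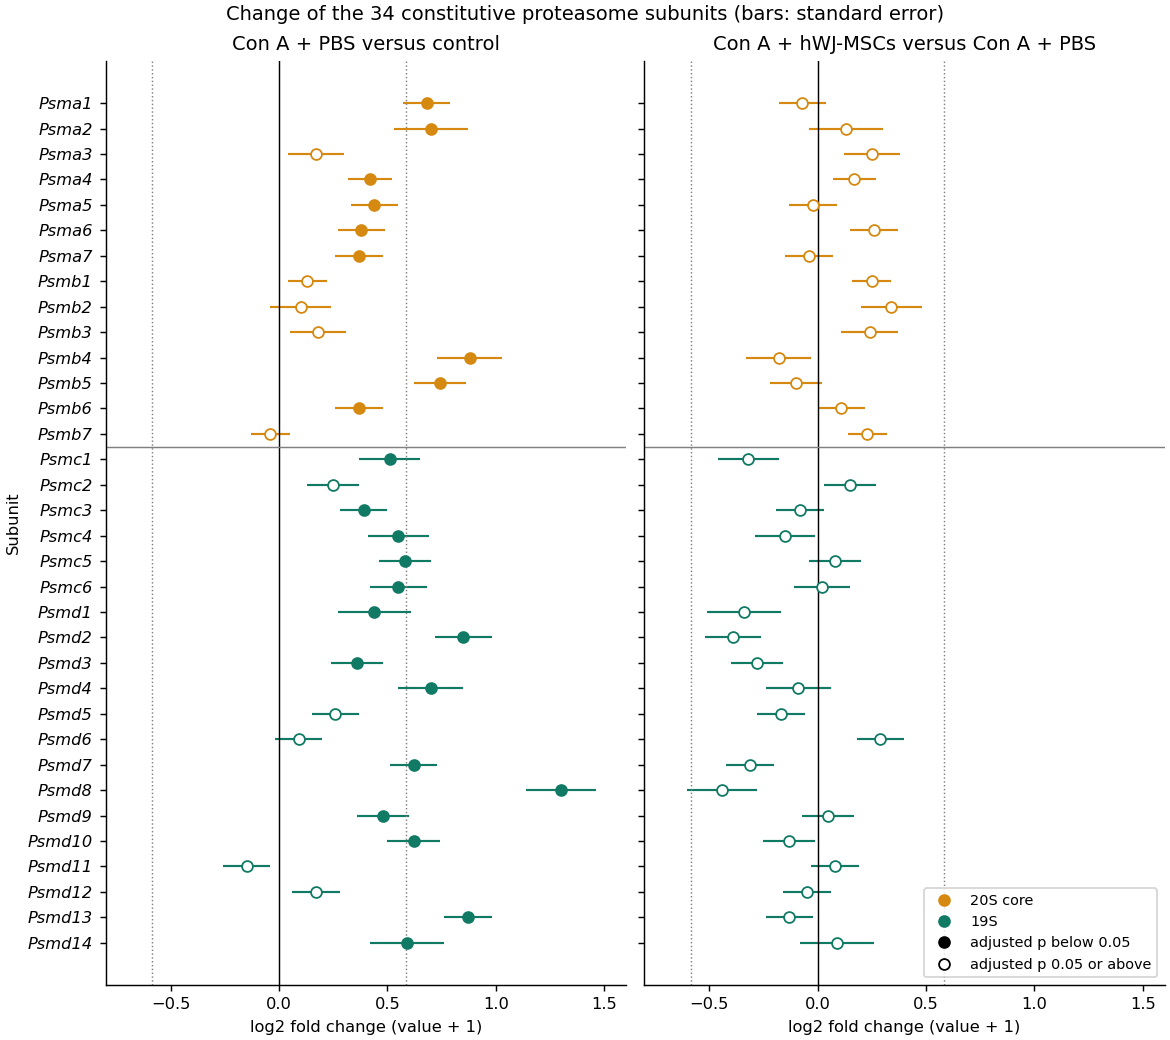
Log2 fold change of each of the 34 members (points) with its standard error (bars) in Con A + PBS versus control (left) and in mice given cells versus Con A + PBS mice (right), with 20S core genes above the line and 19S genes below it, and dotted lines at a fold change of 1.5. On the left 24 filled points, those with an adjusted p below 0.05, lie above 0, and on the right no point is filled.

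Of the 7 alpha-ring genes, 6 rose and Psma3 did not pass the test (0.17, adjusted p = 0.274 by limma). Psma1 (transcript at chr7:114264606-114276118 of mm10, minus strand) had values of 1844, 1752, 1992 and 1600 in the control mice, 2732, 2530, 3130 and 3166 in the Con A + PBS mice, and 2976, 2420, 2907 and 2658 in the Con A + hWJ-MSCs mice. Every mouse given Con A lay above every control mouse. The log2 fold change after Con A was 0.68 with a standard error of 0.11 (limma, adjusted p = 0.000319). Psma2 changed as much (0.70, adjusted p = 0.00431 by limma), and the changes of Psma4, Psma5, Psma6 and Psma7 were between 0.37 and 0.44. For Psma3 and Psma5, 20.6% and 27.5% of the 100-base stretches of the listed transcript also occur in transcripts of other genes, so these values depend on how shared reads were divided.

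The 7 beta-ring genes were uneven, with 3 that rose and 4 that did not pass the test. Psmb4, a structural subunit of the ring, had the largest change of the core, from 1572 ± 106 in control mice to 2909 ± 384 in Con A + PBS mice (SD, n = 4), a log2 fold change of 0.88 (limma, adjusted p = 0.000328). The other structural subunits, Psmb1, Psmb2 and Psmb3, had values of 0.13, 0.10 and 0.18, with adjusted p of 0.203, 0.554 and 0.237 by limma, and of Psmb3 18.0% of the 100-base stretches also occur in other genes.

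The catalytic subunits went apart. Psmb5, which carries the chymotrypsin-like site and is the main target of proteasome inhibitor drugs (chr14:54614120-54617995, minus strand), had values of 1242, 1008, 1071 and 970 in control mice and 1844, 1558, 1809 and 1926 in Con A + PBS mice. The groups did not overlap, and the log2 fold change was 0.74 with a standard error of 0.12 (limma, adjusted p = 0.000273). A share of 24.9% of the 100-base stretches of its listed transcript also occurs in transcripts of 2 other genes, so its value depends on how shared reads were divided. Psmb6, which carries the caspase-like site (chr11:70525367-70526424, plus strand), had 1639, 1480, 1520 and 1242 in control mice and 1875, 1782, 1892 and 2004 in Con A + PBS mice. These groups did not overlap either, and the change was 0.37 (limma, adjusted p = 0.0134). Psmb7, which carries the trypsin-like site (chr2:38588036-38644087, minus strand), had 1686, 1710, 1592 and 1519 in control mice and 1630, 1497, 1568 and 1620 in Con A + PBS mice. Here the groups overlapped, with a value of -0.04 and a standard error of 0.09 (limma, adjusted p = 0.719).

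Among the 6 ATPases, 5 rose and none was called, since their changes lay inside the fold limit. Psmc5 (chr11:106256154-106263120, plus strand) went from 1068, 1014, 1106 and 892 in control mice to 1494, 1300, 1564 and 1737 in Con A + PBS mice. The groups did not overlap, and the log2 fold change was 0.58 with a standard error of 0.12 (limma, adjusted p = 0.00179). Psmc1, Psmc3, Psmc4 and Psmc6 rose by 0.51, 0.39, 0.55 and 0.55, and Psmc2 had 0.25 (limma, adjusted p = 0.103).

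All 3 Psmd-named non-ATPase subunits of the base rose. Psmd2, the large scaffold that docks ubiquitin shuttles (chr16:20651652-20663414, plus strand), had values of 1958, 2844, 2410 and 2410 in control mice and 4310, 3826, 4310 and 4766 in Con A + PBS mice. Its lowest Con A + PBS mouse was above the highest control mouse, and the log2 fold change was 0.85 with a standard error of 0.13 (limma, adjusted p = 0.000212). Psmd4, the ubiquitin receptor Rpn10, rose by 0.70 (limma, adjusted p = 0.00216). Psmd1, the other large scaffold, rose by 0.44 (limma, adjusted p = 0.0415), but without Con A + PBS mouse 4 the value was 0.28 and the adjusted p 0.106.

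Of the 8 lid subunits 5 rose and 4 of these were called. Psmd8, which closes the assembly of the lid (chr7:29174188-29180552, minus strand), had the largest change of all members. Its values were 1039, 1218, 1204 and 1136 in control mice, 2616, 2530, 2448 and 3982 in Con A + PBS mice, and 2268, 1649, 2245 and 2291 in Con A + hWJ-MSCs mice. All mice given Con A were above all control mice, and Con A + PBS mouse 4 was far above its group. The log2 fold change after Con A was 1.30 with a standard error of 0.16 (limma, adjusted p = 3.69e-05), and 1.14 without that mouse. Psmd13, another lid subunit (chr7:140881968-140898642, plus strand), had the smallest p of the members. It had 698, 808, 806 and 746 in control mice and 1496, 1264, 1389 and 1459 in Con A + PBS mice, so that the groups were far apart, with a change of 0.87 (limma, adjusted p = 3.57e-05). Psmd7 rose by 0.62 and Psmd14, the deubiquitinating enzyme of the lid, by 0.59, and Psmd3 rose by 0.36, or by 0.23 without Con A + PBS mouse 4 (limma, adjusted p = 0.0483). Without Con A + PBS mouse 4, Psmd4, Psmd7 and Psmd14 still passed the adjusted p but fell below the fold limit (0.57, 0.55 and 0.46), so that 4 of the 20 genes of the 19S group were called in place of 7, near the 18.3% of all genes called higher without that mouse. Psmd6, Psmd11 and Psmd12 had values of 0.09, -0.15 and 0.17, with adjusted p of 0.520, 0.241 and 0.223 by limma.

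The chaperones that assemble the base are not part of the finished particle. Of the 3, Psmd10 rose by 0.62 and Psmd9 by 0.48 (limma, adjusted p = 0.000989 and 0.00422), while Psmd5 had 0.26 (limma, adjusted p = 0.0556). Psmd10, also known as gankyrin, had 208.8 ± 10.2 in control mice and 322.5 ± 47.6 in Con A + PBS mice (SD, n = 4).

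**Figure D2:**
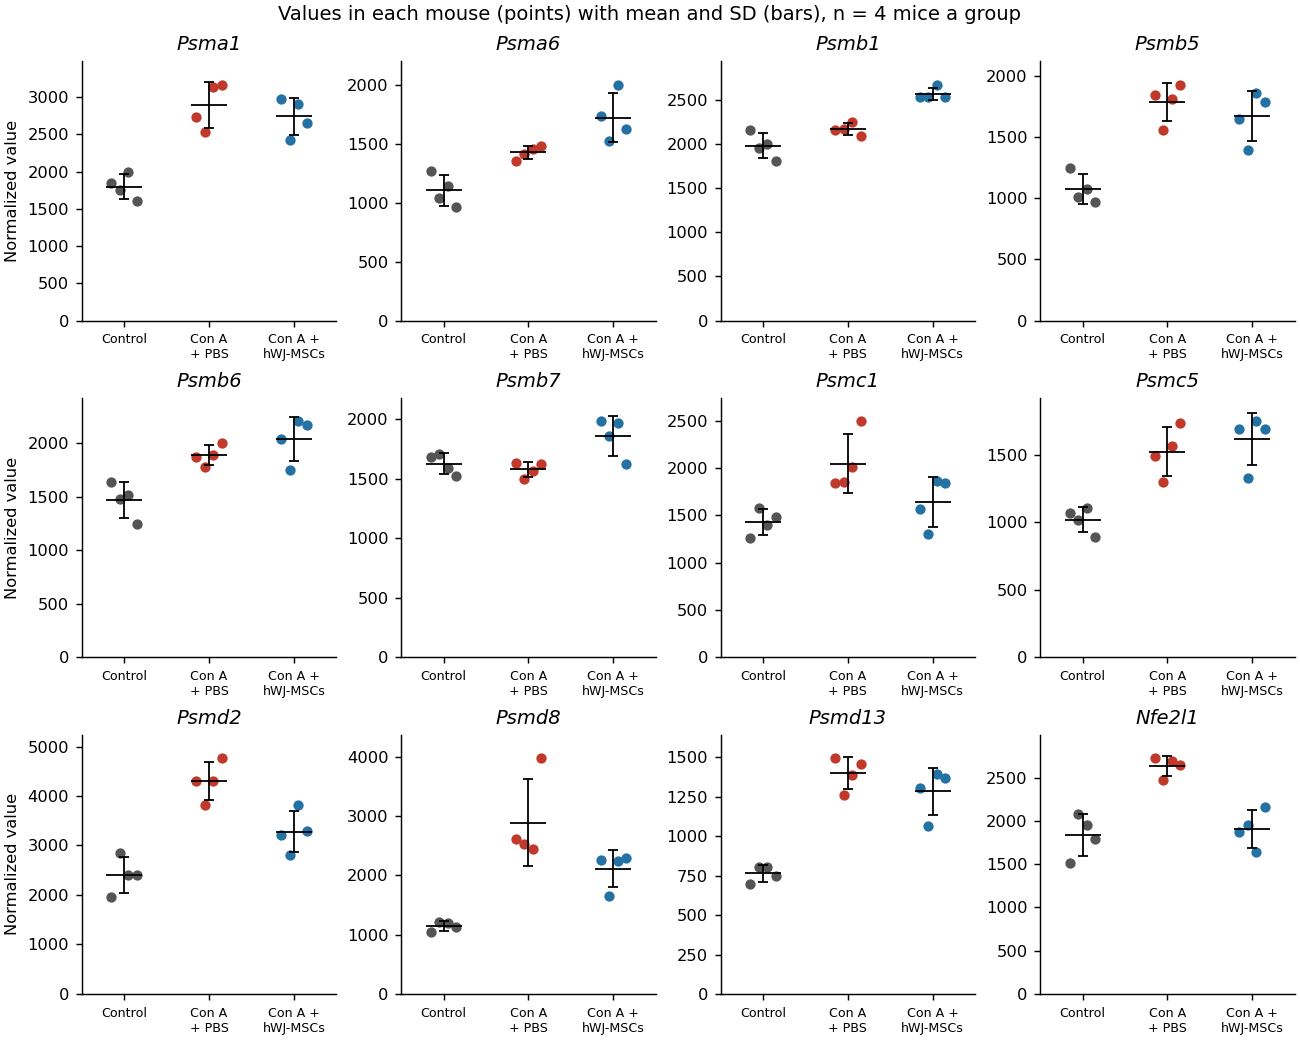
Normalized value in each mouse (points) with the mean and SD of the 4 mice of a group (bars) for 11 members and Nfe2l1, each on its own axis starting at 0. Psma1, Psmb5, Psmc5, Psmd2, Psmd8 and Psmd13 have all Con A + PBS mice above all control mice, and Psmb7 does not.

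Promoters of the members were read from RefSeq (GRCm38.p6) to show what the genes that moved most and the catalytic genes have in front of them. A window of 300 bases, from 250 before the transcription start to 50 after it, was given for 28 of the 34 members, 11 of the core and 17 of the 19S group, and Psmb1, Psmb2, Psmb7, Psmc3, Psmd3 and Psmd7 had no entry. The core of the antioxidant response element, TGACNNNGC, to which NRF1 and its relatives bind, was searched on both strands. It was found in the windows of 5 members, Psmb5, Psmb6, Psmc6, Psmd9 and Psmd12, in 16.7% of their 30 windows, since some genes have more than 1, and in 12.4% of all 32851 windows. The CCAAT box was found in 11 members, 6 of the core and 5 of the 19S group, in 36.7% of the members' windows and in 37.4% of all windows. The core of the interferon-stimulated response element, GAAANNGAA, was found in 5 members, Psmb3, Psmb4, Psmc2, Psmd4 and Psmd9, in 16.7% of the members' windows and in 8.56% of all windows. Members with and without a match rose, for example Psmb5 and Psmd8.

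The windows of the 2 catalytic genes with an antioxidant response element core, of Psmd9 with the same core near its start, of Psmb4 with the largest change of the core particle, and of Psmd8 with the largest change of all are shown. They are on the strand of the gene, 5′ to 3′, at chr14:54617946-54618245 (minus strand), chr11:70525107-70525406 (plus), chr5:123227940-123228239 (plus), chr3:94886909-94887208 (minus) and chr7:29180624-29180923 (minus). Capitals mark the antioxidant response element core in Psmb5, Psmb6 and Psmd9 and the interferon-stimulated response element core, which lies on the opposite strand, in Psmb4. None of the 3 motifs was found in the window of Psmd8.
Psmb5: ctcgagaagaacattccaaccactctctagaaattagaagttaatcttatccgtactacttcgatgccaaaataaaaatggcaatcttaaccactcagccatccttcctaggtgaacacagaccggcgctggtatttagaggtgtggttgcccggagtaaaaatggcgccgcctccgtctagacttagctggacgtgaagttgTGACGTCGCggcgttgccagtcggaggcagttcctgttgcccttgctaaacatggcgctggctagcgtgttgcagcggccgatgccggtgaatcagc
Psmb6: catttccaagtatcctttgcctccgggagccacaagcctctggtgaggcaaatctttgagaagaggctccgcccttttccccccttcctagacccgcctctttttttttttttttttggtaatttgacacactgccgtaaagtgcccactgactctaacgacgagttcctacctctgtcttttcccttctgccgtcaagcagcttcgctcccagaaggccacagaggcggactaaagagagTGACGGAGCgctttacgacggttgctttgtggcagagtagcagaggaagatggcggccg
Psmd9: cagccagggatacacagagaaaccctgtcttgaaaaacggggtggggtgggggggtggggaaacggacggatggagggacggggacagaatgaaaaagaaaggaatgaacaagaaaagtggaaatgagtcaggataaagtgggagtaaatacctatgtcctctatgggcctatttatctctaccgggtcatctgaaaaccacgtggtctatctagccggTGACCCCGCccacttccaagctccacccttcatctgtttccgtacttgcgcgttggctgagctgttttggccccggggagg
Psmb4: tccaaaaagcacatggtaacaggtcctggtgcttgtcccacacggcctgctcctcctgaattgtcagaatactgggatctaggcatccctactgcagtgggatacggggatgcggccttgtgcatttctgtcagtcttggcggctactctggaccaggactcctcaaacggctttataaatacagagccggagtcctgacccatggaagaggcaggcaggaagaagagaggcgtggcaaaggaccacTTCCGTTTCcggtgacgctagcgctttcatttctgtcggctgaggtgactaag
Psmd8: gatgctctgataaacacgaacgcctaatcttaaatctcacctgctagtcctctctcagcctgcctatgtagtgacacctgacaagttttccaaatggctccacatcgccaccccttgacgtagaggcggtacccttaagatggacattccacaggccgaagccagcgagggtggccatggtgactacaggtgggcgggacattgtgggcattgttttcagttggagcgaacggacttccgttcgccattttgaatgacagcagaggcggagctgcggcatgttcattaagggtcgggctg
In Psmb5 the core begins 47 bases before the start of transcription, in Psmb6 9 bases before it and in Psmd9 31 bases before it. Of the 5 members with this core, Psmb5, Psmc6, Psmd9 and Psmb6 rose by 0.74, 0.55, 0.48 and 0.37 after Con A, and Psmd12 had 0.17 (limma, adjusted p = 0.223). A match of letters is a description and does not show binding.

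Set side by side, both the 20S core and the 19S group were raised after Con A. In Con A + PBS mice against control, 4 of the 14 core genes (Psma1, Psma2, Psmb4 and Psmb5) and 7 of the 20 genes of the 19S group (Psmd2, Psmd4, Psmd7, Psmd8, Psmd10, Psmd13 and Psmd14) were called higher, against 19.5% of all genes, and 9 and 15 rose by adjusted p, against 29.5%. Without Con A + PBS mouse 4 the counts of called genes were 4 and 4, against 18.3% of all genes. The medians were 0.38 and 0.53, and their difference before rounding, 20S minus 19S, was -0.16. The SD of the difference of class means between mice of a group was up to 0.15. Without Con A + PBS mouse 4 the difference of the medians was -0.09, and no test of it was made. The mean of the log2 values over each class, relative to the control mice, was also taken in each mouse. For the core it was between -0.19 and 0.16 in control mice, 0.30 and 0.47 in Con A + PBS mice, and 0.35 and 0.65 in Con A + hWJ-MSCs mice. For the 19S group it was between -0.09 and 0.09, 0.36 and 0.71, and 0.20 and 0.51, and the highest value was that of Con A + PBS mouse 4. In both classes all mice given Con A were above all control mice.

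**Figure D3:**
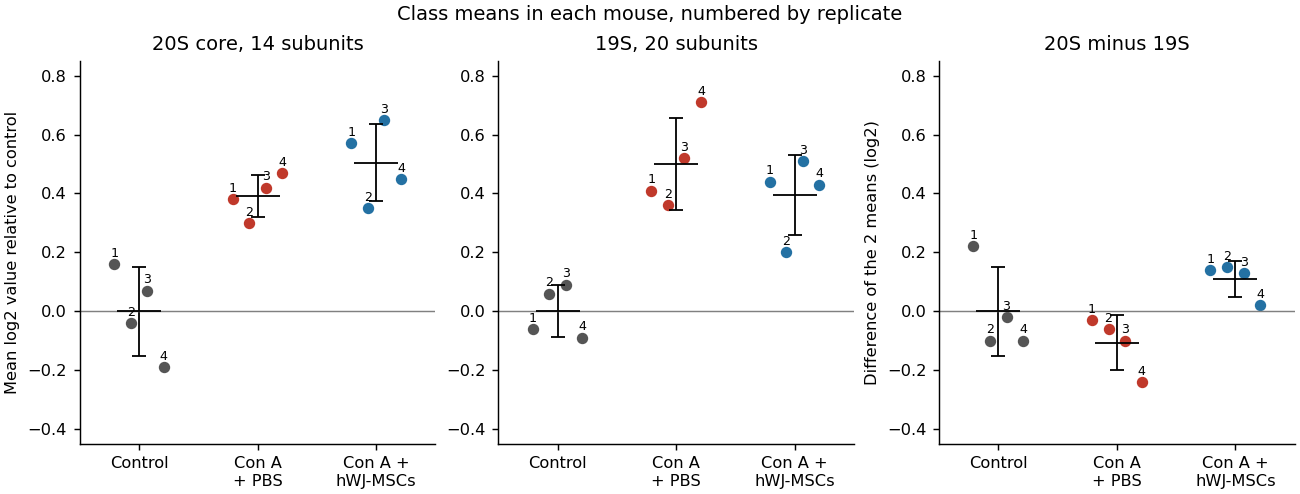
Mean log2 value over the 14 core genes (left) and the 20 genes of the 19S group (middle), each gene relative to its mean in the control mice, and the difference of both means (right), for each mouse (points, numbered by replicate) with the mean and SD of each group (bars). The difference lies between -0.24 and -0.03 in Con A + PBS mice and between 0.02 and 0.15 in Con A + hWJ-MSCs mice.

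With hWJ-MSCs no single member passed the test. Between the mice given cells and those given PBS after Con A, 0 of the 34 members were called and 0 passed the adjusted p by limma, against 8.58% and 13.2% of all genes. By unadjusted p below 0.05, 5 members were higher and 5 lower, against 18.0% and 16.6% of all genes, and these shares of the 34 members are near those of all genes. The numbers were 5 and 3 without Con A + PBS mouse 4, against 1624 and 1477 of all 11289 genes. With centring by transcript length they were 0 and 10, against 1828 and 1737 of 11168 genes, which are not near the shares of the members. The median over the members was -0.03 and over all genes 0.00, and with this centring the members had -0.13. This comparison and the first share the Con A + PBS mice, so a high value of these mice raises one change and lowers the other.

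In this comparison the median was 0.15 for the core and -0.11 for the 19S group, a difference of 0.26, where the SD of the difference of class means between mice of a group was up to 0.09. In single mice the difference of the class means was -0.03, -0.06, -0.10 and -0.24 in the Con A + PBS mice and 0.14, 0.15, 0.13 and 0.02 in the Con A + hWJ-MSCs mice, and 0.22, -0.10, -0.02 and -0.10 in the control mice. The groups given Con A did not overlap, and the control mice overlapped both. Without Con A + PBS mouse 4 the median of the core was 0.14 and that of the 19S group -0.01, a difference of 0.15. The 14 genes of the 19S group other than the ATPases had a median of -0.13 with that mouse and -0.12 without it. No test of the difference was made. All 4 core genes with an unadjusted p below 0.05 were higher (Psma6, Psmb1, Psmb2 and Psmb7), and of 6 such genes of the 19S group 5 were lower (Psmc1, Psmd2, Psmd3, Psmd7 and Psmd8) and Psmd6 was higher. In the 19S group there were 3 lower and 1 higher without Con A + PBS mouse 4, against 1477 and 1624 of all 11289 genes. With the centring by transcript length described below, these 4 core genes had values of 0.07, 0.13, 0.15 and 0.02. By unadjusted p 0 core genes were then higher and 4 were lower, and in the 19S group 0 and 6, against 1828 and 1737 of 11168 genes.

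The genes with the smallest p in each family show the size of these shifts. Psmb1, a structural beta subunit (chr17:15475721-15498276, minus strand), had values of 2158, 2176, 2256 and 2096 in the Con A + PBS mice and 2541, 2541, 2677 and 2540 in the Con A + hWJ-MSCs mice. The groups did not overlap, and the log2 value was 0.25 with a standard error of 0.09 (limma, adjusted p = 0.0696). Psma6 of the alpha ring (chr12:55384222-55418310, plus strand) had 1360, 1419, 1462 and 1488 against 1742, 1529, 2006 and 1629, again without overlap, and a value of 0.26 (limma, adjusted p = 0.118). The ATPase Psmc1 (chr12:100110186-100123364, plus strand) had 1840, 1854, 2011 and 2496 against 1564, 1306, 1869 and 1840, with overlap, and a value of -0.32 (limma, adjusted p = 0.126), or -0.22 without Con A + PBS mouse 4. Psmd2 had 4310, 3826, 4310 and 4766 against 3212, 2804, 3826 and 3287, where the lowest Con A + PBS mouse had the same value as the highest mouse given cells. Its value was -0.39 with a standard error of 0.13 (limma, adjusted p = 0.0637). Psmd8 had -0.44 (limma, adjusted p = 0.0815), or -0.27 without Con A + PBS mouse 4, and the catalytic genes Psmb5, Psmb6 and Psmb7 had -0.10, 0.11 and 0.23.

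The length of the transcripts differed between the classes and moved with the change. The table lists 1 transcript per gene, with a median length of 1162 bases for the core and 1613 for the 19S group, and of 2755 over the 11168 genes whose transcript was found in GENCODE M21. For Psmd1 the listed transcript is only 613 bases long. Between the mice given cells and those given PBS the median change of all genes went from 0.19 in the shortest of 10 bins of transcript length to -0.19 in the longest. When each mouse was centred within these bins, the medians became -0.01 for the core and -0.21 for the 19S group, a difference of 0.19. Psmd8 was then called lower (-0.65, adjusted p = 0.0445 by limma) and Psmd7 passed the adjusted p (-0.42, adjusted p = 0.0409 by limma). These are 2 of the 34 members, where 5.2% of all genes passed as lower, a share near that of the members. This centring was chosen after the data were seen. In Con A + PBS mice against control it gave medians of 0.45 and 0.56, with 4 and 10 genes called higher, against 19.6% of all genes.

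**Figure D4:**
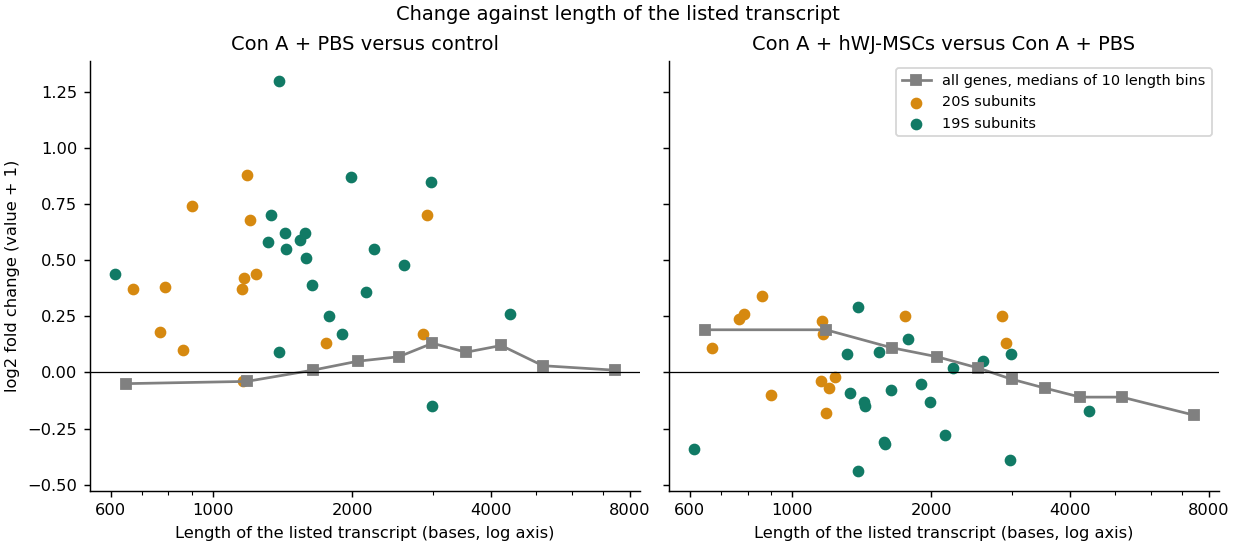
Log2 fold change of the core (orange) and 19S genes (green) against the length of the listed transcript on a log axis, with the medians of all genes in 10 bins of length (grey), in both comparisons. After Con A 32 of the 34 members lie above 0, and with cells the grey line falls from 0.19 to -0.19.

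In livers that had received Con A and cells most members were above control. Against control, 5 core genes (Psma1, Psma2, Psma6, Psmb4 and Psmb5) and 5 genes of the 19S group (Psmc5, Psmd4, Psmd8, Psmd13 and Psmd14) were called higher in mice given cells, against 13.6% of all genes. By adjusted p (limma) 27 of the 34 members rose, 13 of the core and 14 of the 19S group, and 0 fell, against 22.3% and 18.4% of all genes. The medians were 0.46 and 0.40, where all genes had 0.04. With centring by length 21 members rose by adjusted p, 10 of the core and 11 of the 19S group, and 0 fell, against 2434 and 2102 of 11168 genes. The values that follow are without this centring, except where it is named. The largest changes were those of Psmd8 (0.87), Psma2 (0.83), Psmd13 (0.74) and Psmb4 (0.70). Psma3, Psmb1, Psmb2, Psmb3, Psmc2 and Psmd6, which had not passed the test in Con A + PBS mice, rose by 0.38 to 0.44 here, and as given above none of them passed the test of mice given cells against Con A + PBS mice. With centring by length 2 core genes and 3 genes of the 19S group were called, 5 of the 34 members, against 12.8% of all genes, which is near the share of the members. Of the core, Psmb7 did not pass the test (0.19, adjusted p = 0.127 by limma), nor did Psmc1, Psmd1, Psmd3, Psmd5, Psmd11 and Psmd12 of the 19S group. The core count rested on single mice, since it was 2 without Con A + hWJ-MSCs mouse 3 and 3 without control mouse 4.

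The immunosubunits had larger changes than the catalytic subunits that they replace. The values of Psmb8 (chr17:34197721-34200918, plus strand) were 721, 652, 712 and 569 in control mice, 3740, 3639, 3912 and 1587 in Con A + PBS mice, and 3486, 3262, 3224 and 2394 in Con A + hWJ-MSCs mice. Con A + PBS mouse 4 was the lowest of the mice given Con A, but still above every control mouse. The changes after Con A were 2.2 for Psmb8, 1.38 for Psmb9 and 1.12 for Psmb10 (limma, adjusted p = 1.89e-05, 0.00163 and 4.71e-05), and with hWJ-MSCs they were 0.01, 0.12 and -0.11, with adjusted p from 0.628 to 0.978. Without Con A + PBS mouse 4 the latter were -0.30, -0.20 and -0.22, and none passed the adjusted p by limma.

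The balance of each pair was taken within a mouse, as the log2 value of the immunosubunit minus that of its partner. Only the change of this difference between groups has a meaning, since levels of different genes are not comparable here. For Psmb8 minus Psmb5 it was -0.78, -0.63, -0.59 and -0.77 in control mice, 1.02, 1.22, 1.11 and -0.28 in Con A + PBS mice, and 1.08, 1.23, 0.79 and 0.43 in Con A + hWJ-MSCs mice. All mice given Con A were above all control mice. The shift from control to Con A + PBS was 1.46, a 2.75-fold change of the ratio (two-sided exact permutation test, p = 0.0286, the smallest that 4 mice against 4 allow). For Psmb9 minus Psmb6 the shift was 1.01 (exact p = 0.0857), with Con A + PBS mouse 4 at -1.80 among the control mice, which had -2.07 to -1.43. For Psmb10 minus Psmb7 it was 1.16 (exact p = 0.0286), with control mice between -1.0 and -0.57 and Con A + PBS mice between -0.03 and 0.55. From control to mice given cells the shifts were 1.57, 1.03 and 0.83, each with an exact p of 0.0286. Adjusted over the 9 tests by Benjamini-Hochberg, the smallest exact p became 0.0514, so that no shift passed the correction, although 5 of the 9 separated the groups completely. From PBS to cells the shifts were 0.11, 0.01 and -0.34 (the lowest exact p was 0.114 and the highest 0.943), and -0.24, -0.34 and -0.46 without Con A + PBS mouse 4, which turns the direction of the first pair and of Psmb9 minus Psmb6.

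**Figure D5:**
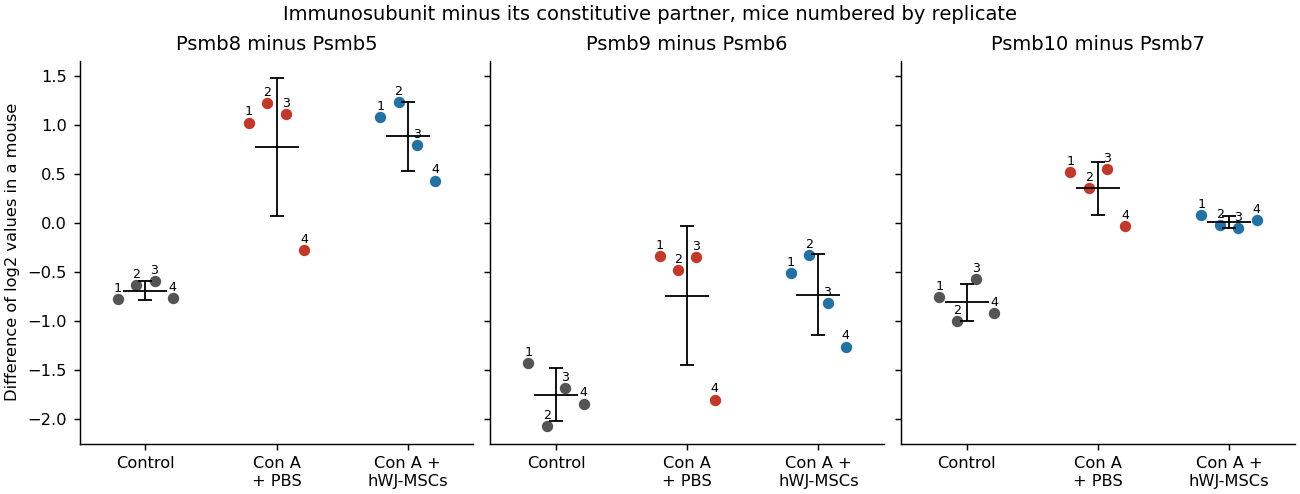
Log2 value of the immunosubunit minus that of its constitutive partner in each mouse (points, numbered by replicate) with the mean and SD of each group (bars, n = 4 mice). Control mice lie below the mice given Con A in the outer pairs, and Con A + PBS mouse 4 lies lowest of its group in each pair.

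The activators that dock on the core in place of the 19S particle also rose. Of the 5 genes of that list, 4 rose after Con A by adjusted p, against 29.5% of all genes, and the inhibitor Psmf1 had 0.24 (limma, adjusted p = 0.177). Psme1 and Psme2, the interferon-induced PA28 subunits, rose by 0.80 and 0.89, Psme3, the nuclear PA28-gamma, by 0.82 and Psme4, which encodes PA200, by 0.63. With hWJ-MSCs none passed the adjusted p. Psme3 had the lowest p with a value of -0.52 (limma, adjusted p = 0.0528), -0.71 with centring by length (limma, adjusted p = 0.0474) and -0.34 without Con A + PBS mouse 4 (limma, adjusted p = 0.0947), followed by Psme4 with -0.44. The 4 other proteins of the 19S particle, the ubiquitin receptor Adrm1, the deubiquitinating enzymes Usp14 and Uchl5 and the small lid protein Shfm1, had -0.05, -0.13, 0.05 and 0.04 after Con A and none passed the test by limma. Shfm1 had 0.88 with hWJ-MSCs (limma, adjusted p = 0.0671).

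Chaperones that assemble the core were uneven. Of the 5 measured, Pomp, the maturation factor of the beta rings, rose by 0.42 and Psmg4 by 0.96, Psmg3 fell by 0.58, and Psmg1 and Psmg2 had -0.16 and 0.15. None changed by adjusted p with hWJ-MSCs, where Psmg1 and Psmg3 had 0.39 and 0.43.

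The gene of NRF1 itself was higher after Con A and lower with hWJ-MSCs. Nfe2l1 (chr11:96817431-96827955, minus strand) had 1514, 2075, 1946 and 1790 in control mice, 2724, 2466, 2690 and 2645 in Con A + PBS mice, and 1866, 1956, 1634 and 2160 in Con A + hWJ-MSCs mice. The Con A + PBS mice were above both other groups, which overlapped. The change was 0.53 after Con A (limma, adjusted p = 0.00234) and -0.47 with hWJ-MSCs (limma, adjusted p = 0.0313). Without Con A + PBS mouse 4 the latter was again -0.47, with an adjusted p of 0.0582 by limma. Leaving out this mouse lowered the numbers of all 11289 genes that passed the adjusted p with cells. They went from 734 to 176 higher and from 751 to 194 lower. Of the 9 measured genes of the list 5 rose and 1, Mafg, fell after Con A, against 29.5% and 26.0% of all genes, and with hWJ-MSCs 3 fell, against 6.65% (Nfe2l1, Maff and Mafk), of which Maff alone passed the adjusted p without Con A + PBS mouse 4. The values of these 3 were then -0.47, -1.93 and -0.66. Maff, a small partner of NRF1, rose by 2.94 and fell by 2.31, each with a standard error of 0.46. Its values were low, at 42 to 60 in control mice and 29 to 126 in mice given cells, and spread from 213 to 844 in Con A + PBS mice. Mafk rose by 0.66 and fell by 0.82, while Syvn1, an enzyme that marks NRF1 for degradation at the endoplasmic reticulum, rose by 1.24 and had -0.39.

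Among the genes that supply and activate ubiquitin, Ubb, a polyubiquitin gene, rose by 1.31 after Con A and had -0.23 with hWJ-MSCs. The ubiquitin-activating enzymes Uba1 and Uba6 rose by 0.40 and 0.39, and Uba6 fell by 0.46 with hWJ-MSCs (limma, adjusted p = 0.0379) where Uba1 had -0.27 (limma, adjusted p = 0.103). Without Con A + PBS mouse 4 the value of Uba6 was -0.45 (limma, adjusted p = 0.0774). Of the 19 genes that carry substrates to the proteasome, 9 rose and 2 fell after Con A, against 29.5% and 26.0% of all genes. With hWJ-MSCs 1 rose and 3 fell, against 6.5% and 6.65% of all genes. Zfand2a, a stress-induced zinc-finger protein that binds the 19S particle, rose by 2.10 and fell by 0.93, and its relative Zfand2b fell by 0.83 and rose by 0.38. Nub1, an interferon-induced protein that delivers NEDD8-linked proteins, rose by 0.77 and fell by 0.45. Without Con A + PBS mouse 4 none of these 19 genes passed the adjusted p with cells by limma, and 5 had an unadjusted p below 0.05. Over all 11289 genes 176 then passed as higher and 194 as lower, a share near that of the 19. The values of Zfand2a, Zfand2b and Nub1 were -0.91, 0.35 and -0.47 without this mouse. With centring by length none of the 19 passed either, against 483 higher and 581 lower of 11168 genes, with 5 at an unadjusted p below 0.05. Uba6 then had -0.27 (limma, adjusted p = 0.112).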

How the data were processed

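Poly-A RNA of 12 livers was made into libraries with a kit that does not mark strand and read in pairs of 150 bases. The submitters' processing notes name Bowtie2 2.2.1, RSEM 1.2.18 and the build mm10. The deposited value is a score, a whole number that the authors had already normalized between mice by a method not given in the sources used here, and not a raw count. Every gene reached 64 in at least 2 mice, so lower genes had been left out. All 12 columns of mice were used. Groups and replicate numbers came from the labels.

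Values were taken as log2(value + 1), which understates changes of low genes, and the model was fitted by limma 3.58.1 under R 4.3.3 (lmFit and eBayes with a trend, all 12 mice, no covariates). DESeq2, which the study names, needs raw counts and was not run. Exact tests, summaries and plots used Python 3.11.15, numpy 2.4.6, pandas 2.3.3, scipy 1.17.1 and matplotlib 3.10.9. Stretches of 100 bases shared between transcripts were counted in GENCODE M21.

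The members and gene lists were chosen with earlier results of these data known. Named were all members, with values in every mouse for the catalytic genes and the smallest p of each family, and, in each other list, the 2 genes with the smallest p of each of the first 2 comparisons besides 7 that were always named. Psmd8 and the markers Apob, Fabp1, Csf1r and Lyz2 were added after their values were seen. A gene of the ubiquitin list is not reported here. The p-values measure the spread between mice. Alternatives were a pseudocount of 10, a mean value of at least 100, median centring, quantile normalization, no trend, only the 8 mice compared, other thresholds, each mouse left out and the replicate number as a block. Centring within bins of transcript length or GC content was added after the data were seen.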

Additional observations from a re-analysis of the deposited data

Results flagged for a closer look

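Values of a group of 4 mice were looked at again where the gap between the highest or lowest mouse and the nearest other mouse, divided by the range of the group on the log2 scale, was above Dixon's critical value at 95% for 4 values. Chance gives about 1 in 20 such groups. Of 201 groups tested 19 had such a mouse, and of the 102 groups of the members 8 had. In 4 members it was the lowest Con A + hWJ-MSCs mouse, mouse 2 in each case, with a value of 1328 for Psmc5 (the other mice 1694 to 1749), 2107 for Psmc6 (2830 to 2908), 1382 for Psmd3 (1550 to 1558) and 1649 for Psmd8 (2245 to 2291). In Con A + hWJ-MSCs mouse 3 Psmb1 was highest with 2677 (2540 to 2541). Con A + PBS mouse 4 had the highest Psmd8 with 3982 (2448 to 2616), and Con A + PBS mouse 1 the lowest Psmd6 with 923 (1149 to 1168). Control mouse 2 had the highest Psmb4 with 1729 (1498 to 1530).

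Among the other genes, Con A + PBS mouse 4 was lowest in Psmb8 with 1587 (the other mice 3639 to 3912), Psmb9 with 576 (1278 to 1488), Psme1 with 2304 (3584 to 3795), Psme2 with 1488 (2401 to 2584), Serpina1a with 34359 (58110 in each of the others) and Shfm1 with 597 (1034 to 1108). This mouse made up 7 of the 19. Con A + PBS mouse 2 had the lowest Tat with 12268. Control mice stood apart in Syvn1 (mouse 3, 2753), Zfand2a (mouse 1, 56) and Zfand2b (mouse 4, 362), and Con A + hWJ-MSCs mouse 3 in Zfand2b (316). The cause of these values was not tested.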

How the results depend on the processing

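For the groups given PBS or cells after Con A, the counts of members called kept within 1.5 times of the main ones under the pseudocount of 10, the filter at a mean value of 100, median centring, quantile normalization, no trend, only the 8 mice compared, unadjusted p with the fold limit and GC centring. Since every mouse already had the same median of 352, median centring could not change these counts and is no check of them. Quantile normalization had little to change, since the range of the totals was 0.0425% of their median. Without the fold limit, the adjusted p gave 9 core and 15 19S genes with PBS against control, 0 and 0 with cells against PBS, and 13 and 14 with cells against control, by construction of that rule. With centring by transcript length the 19S count with cells against PBS was 1 in place of 0, and with cells against control 2 core and 3 19S genes were called in place of 5 and 5, and the cause was not tested. With each mouse left out, the counts ran from 3 to 4 (core) and from 4 to 10 (19S) with PBS against control, stayed at 0 and 0 with cells against PBS, and ran from 2 to 6 and from 4 to 7 with cells against control. The 20S minus 19S difference of medians ran from -0.18 to -0.09, from 0.15 to 0.29 and from 0.03 to 0.13 in these comparisons, the lowest of the second being without Con A + PBS mouse 4, and centring by length gave -0.11, 0.19 and -0.02. The shifts of the immunosubunit pairs from control to PBS ran from 1.31 to 1.81, 0.88 to 1.37 and 1.09 to 1.29, and from PBS to cells from -0.24 to 0.27, -0.34 to 0.19 and -0.46 to -0.27. Of 2346 values of single members under an alternative, 2268 kept their side of the call limit, 27 lost and 51 gained a call, and no called value changed sign. The values under median centring and quantile normalization are among these, and they had no or little room to differ.

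The replicate numbers belong to different animals. Mice of the same number deviated together with correlations from -0.118 to 0.375, without a common sign, so the numbers were not taken as pairs. With the number as a block the counts of core and 19S genes called were 4 and 7, 0 and 0, and 5 and 5, and the differences of medians -0.16, 0.26 and 0.06, the same as without it. The number of 4 mice a group and the unknown depth limit what can be seen.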
